A study of Mus musculus with 32 samples.

Results

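The collagen gene family of mouse was followed through spinal cord injury in bulk RNA-seq counts. Its members were taken as all rows of the count table whose gene symbol has the collagen form, Col with a type number, the letter a and a chain number. Of 23420 genes in the table, 44 symbols had this form, and the 42 with at least 100 counts summed over the 32 libraries were kept. The lowest member inside that limit was Col4a4 with 541 counts, and the symbols just outside it were Col17a1 with 83 and Col10a1 with 39 counts. The members comprised 11 fibrillar chains, 8 basement membrane chains and 23 other chains, and all 42 passed the expression filter of the test. The other chains were 6 beaded filament chains of collagen VI, 9 chains of FACITs (fibril-associated collagens with interrupted helices), 2 network chains of collagen VIII, 1 anchoring fibril chain, 3 transmembrane chains and 2 remaining chains.

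The mice were of strain C57BL/6J and labelled as 8 to 12 weeks old, and total RNA came from frozen cord segments of a few millimetres on each side of the lesion or injection. Injured cords labelled SCI+Gsx1 were sampled at 3 days (n = 3), 14 days (n = 3) and 35 days (n = 4) after injury, and those labelled SCI+Nkx6.1 at 3 days (n = 3) and 35 days (n = 3). Injured control cords, labelled SCI+Ctrl, were sampled at 3 days (n = 3), 14 days (n = 3) and 35 days (n = 4), and sham cords at 3 days (n = 3) and 35 days (n = 3). Gsx1 and Nkx6.1 are homeodomain transcription factors that pattern the embryonic spinal cord. The labels speak of injected segments, but the vector, what SCI+Ctrl and sham cords were injected with, the kind of injury and the sex of the mice were not stated in the labels. With no sham group of 14 days analysed here, injured cords of that day were compared only with other injured cords. The comparisons of injury, of each factor and of time share SCI+Ctrl libraries, so they are not independent of each other.

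Collagens are secreted proteins built from intertwined chains, and they form the insoluble scaffold of connective tissue. Fibrillar collagens I, III and V make the fibrils of fibrous tissue such as the meninges and scars, basement membrane collagens IV, XV and XVIII line blood vessels and the cord surface, and FACITs sit on fibril surfaces. The healthy cord parenchyma holds little fibrillar collagen, and a fibrotic scar rich in collagens I and IV is a known feature of the injured cord.

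The RefSeq sequence before the start site (build GRCm38.p6) is shown for 4 members on which the results turn: Col3a1 and Col1a2, which rose after injury, Col8a1, among the members lowest in SCI+Gsx1 relative to SCI+Ctrl at 14 days, and Col25a1, the member that fell after injury. Each is the 250 bases before the start, 5′ to 3′ along the gene's strand, with capitals at TATAAA (the TATA box), at CCAAT (the CCAAT box) and at the GC box in either orientation. The GC box was searched as GGGCGG.
Col3a1, chr1:45311288-45311537, plus strand: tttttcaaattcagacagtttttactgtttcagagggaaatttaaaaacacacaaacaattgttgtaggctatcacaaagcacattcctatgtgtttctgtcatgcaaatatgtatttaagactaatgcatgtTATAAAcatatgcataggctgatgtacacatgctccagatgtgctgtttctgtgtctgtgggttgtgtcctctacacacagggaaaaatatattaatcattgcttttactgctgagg
Col1a2, chr6:4505368-4505617, plus strand: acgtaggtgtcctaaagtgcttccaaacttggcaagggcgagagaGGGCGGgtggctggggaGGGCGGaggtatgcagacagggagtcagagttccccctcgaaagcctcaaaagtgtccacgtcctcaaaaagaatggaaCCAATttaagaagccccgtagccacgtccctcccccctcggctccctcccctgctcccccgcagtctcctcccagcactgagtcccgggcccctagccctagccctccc
Col8a1, chr16:57754738-57754987, minus strand: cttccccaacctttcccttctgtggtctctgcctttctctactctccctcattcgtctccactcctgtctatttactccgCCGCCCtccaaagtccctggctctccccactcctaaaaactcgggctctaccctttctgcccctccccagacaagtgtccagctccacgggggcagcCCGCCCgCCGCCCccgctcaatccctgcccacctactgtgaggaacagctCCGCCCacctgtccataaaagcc
Col25a1, chr3:130180595-130180844, plus strand: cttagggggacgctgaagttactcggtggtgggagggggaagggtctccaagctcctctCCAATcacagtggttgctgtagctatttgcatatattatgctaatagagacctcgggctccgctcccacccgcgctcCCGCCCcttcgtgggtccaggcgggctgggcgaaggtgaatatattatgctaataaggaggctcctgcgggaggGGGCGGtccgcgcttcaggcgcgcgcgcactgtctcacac
Col3a1 held the letters TATAAA, beginning 117 bases before the start, and whether they act as a TATA box there was not tested. Col1a2 held a CCAAT box and 2 GC boxes, Col25a1 a CCAAT box and 2 GC boxes, and Col8a1 4 GC boxes, those of Col8a1 all read on the opposite strand. For Col1a2 and Col25a1 the RefSeq start differs from that of the annotation used for exon lengths. Of the 42 members, 33 had windows in the table, 36 in all. Counting both strands, the GC box was in 61.1% of these 36 windows and in 32.7% of all 32851 windows of the table, the CCAAT box in 33.3% and 33.8%, and the TATA box in 8.33% and 12.4%. No matches overlapped in the 4 windows shown, and a match is a description only.

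Each library held between 10823632 and 19512107 counts. Snap25 of neurons, Mbp of oligodendrocytes and Gfap of astrocytes were present in every library, at no less than 491, 10886 and 1253 CPM (each count scaled to the size of its library by TMM). Markers of skeletal muscle, summed over 9 genes, reached 309 CPM in SCI+Ctrl replicate 3 at 3 days and 621 CPM in SCI+Nkx6.1 replicate 2 at 3 days, against at most 105 CPM in any other library. Xist exceeded 100 CPM in 7 libraries, none of them from SCI+Gsx1 cords, and 2 of the 7, sham replicate 1 at 3 days and SCI+Ctrl replicate 4 at 35 days, also had Ddx3y above 10 CPM. The others were sham replicate 2 and SCI+Ctrl replicate 1 at 3 days, and sham replicate 3, SCI+Ctrl replicate 1 and SCI+Nkx6.1 replicate 2 at 35 days. At 3 and 35 days the comparison of SCI+Gsx1 with SCI+Ctrl is therefore partly confounded with this mark. The mark was also unevenly spread in the comparisons of injury, of SCI+Nkx6.1 with SCI+Ctrl, and between days in SCI+Ctrl and sham cords. SCI+Ctrl at 35 days was the most uneven group, with collagens taking 0.100% to 0.392% of its counts. Whether each library is from its own mouse is not said, and the p-values rest on the spread among libraries, which may be technical. In bulk tissue, fewer cells of a type and less RNA per cell cannot be told apart.

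Collagen transcripts took on average 0.0708% of the counts in sham cords at 35 days and 0.501% in SCI+Ctrl cords at 14 days, the lowest and highest group means. Per kilobase of exon, the most abundant chains over all 32 libraries were Col1a1 at 32.1, Col3a1 at 21.5, Col4a1 at 21.5, Col4a2 at 21.4, Col16a1 at 20.7 and Col1a2 at 20.6 RPKM (CPM per kilobase). This order depends on exon lengths taken over all annotated isoforms, 12426 bases for Col1a2 and 6563 for Col1a1. By CPM Col1a2 was the highest member, at a mean of 256. The lowest was Col4a4, a chain of the collagen IV of kidney basement membranes, at 0.107 RPKM. By group mean, 20 of the 42 members were highest in SCI+Ctrl at 14 days and 29 were lowest in sham at 35 days.

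**Figure D1:**
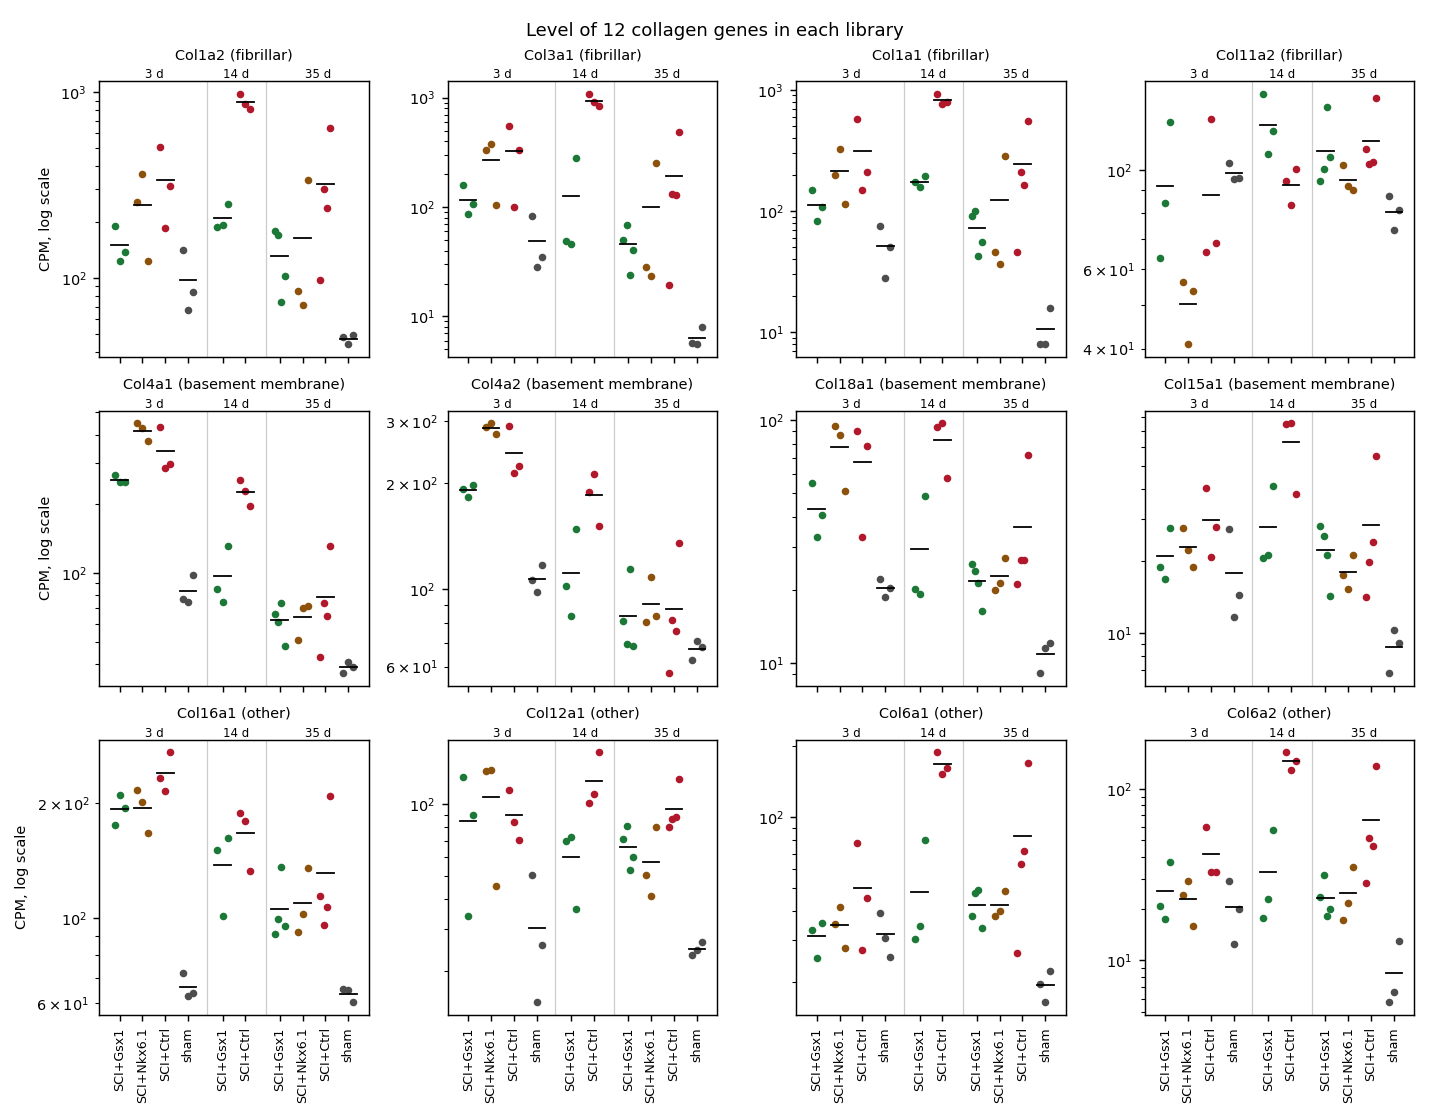
CPM on a log axis for the 4 most abundant members of each class, 1 point per library and 1 line per group mean, by day and treatment. Col1a1, Col1a2 and Col3a1 were highest in the SCI+Ctrl libraries of day 14 and lowest in sham at 35 days, while Col4a1 and Col4a2 were highest at 3 days and Col11a2 varied by 2.51 times between group means.

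More collagens rose than fell after injury. In SCI+Ctrl against sham cords at 3 days, 17 of 42 members rose and 1 fell (edgeR quasi-likelihood test, Benjamini-Hochberg adjusted p under 0.05), against 19.5% of all 16314 genes tested that rose and 16.0% that fell. At 35 days 28 members rose and 1 fell, against 21.3% and 15.5% of all genes. The median log2 fold change was 0.78 over the members and 0.0069 over all genes at 3 days, and 1.31 and 0.039 at 35 days. At 3 days 19 members were higher and 2 lower with no overlap between the groups, against 28.0% and 27.6% of all genes. The risen members were 6 of 11 fibrillar, 5 of 8 basement membrane and 6 of 23 other chains at 3 days, and 7, 7 and 14 of these at 35 days. Of the 17 that rose at 3 days, 16 also rose at 35 days, and Col25a1 was the member that fell on both days. At 3 days 10 of the 18 calls held in every alternative fit and omission of a library, among them Col4a1, Col4a2, Col16a1 and Col5a1, and without SCI+Ctrl replicate 1 the count was 11. It was 16 without the 2 libraries highest in skeletal muscle markers. That fit called 4569 of 16458 genes, against 5788 of 16314 with all libraries. At 35 days 20 of the 29 calls held in all of them, Col1a1, Col1a2, Col3a1, Col6a1 and Col6a2 included. Without the 2 libraries with both sex marks 21 members were called. Over all genes that fit called 3178 of 16467, against 6009 of 16314 with all libraries.

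**Figure D2:**
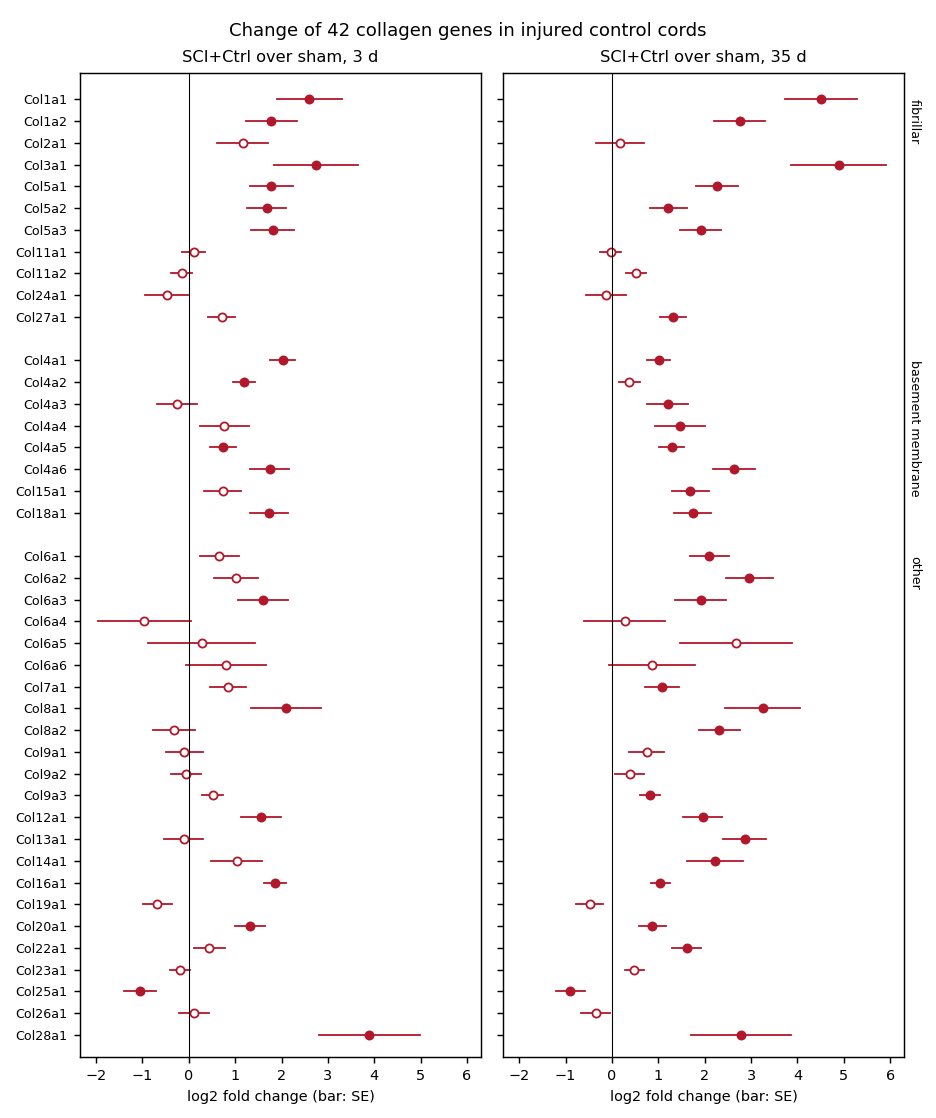
Log2 fold change of each of the 42 members, SCI+Ctrl over sham, at 3 and 35 days, by class. Points are estimates, bars 1 SE on each side, and filled points passed the adjusted p threshold, 18 at 3 days and 29 at 35 days. Col28a1 had the largest rise at 3 days and Col3a1 at 35 days.

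Among fibrillar collagens, the chains of collagens I, III and V rose. Col1a1 (chr11:94936224-94953042, plus strand, GRCm38) encodes the major chain of collagen I, the main component of fibrous scars. It stood at 574, 150.4 and 208 CPM in SCI+Ctrl cords at 3 days, against 74.8, 28.0 and 50.9 CPM in sham cords. The groups did not overlap, but SCI+Ctrl replicate 1 was far above its group. The log2 fold change was 2.60 ± 0.71 (SE; 6.06-fold, adjusted p = 0.00624), and without that replicate it was 1.82 and no longer called (adjusted p = 0.0644). At 35 days the libraries held 45.7, 212, 164 and 550.2 CPM in SCI+Ctrl, against 7.98, 8.06 and 15.8 CPM in sham. The lowest injured library, replicate 1, was above every sham library, and the log2 fold change was 4.51 ± 0.78 (adjusted p = 9.43e-05). It was 3.72 without replicate 4, the highest library (adjusted p = 0.000418).

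Col3a1 (chr1:45311538-45349706, plus strand), the chain of collagen III that co-assembles with collagen I in young scars, stood at 546, 101 and 334 CPM in SCI+Ctrl at 3 days, against 82.2, 28.1 and 35.1 CPM in sham. At 35 days it stood at 19.6, 131, 129 and 481 CPM in SCI+Ctrl, against 5.71, 5.60 and 7.95 CPM in sham. Every injured library was above every sham library of its day, with a spread of more than 20-fold among the injured ones at 35 days. The log2 fold change was 2.75 ± 0.91 at 3 days (adjusted p = 0.0199) and 4.89 ± 1.02 at 35 days (29.6-fold, adjusted p = 0.000753), the largest of any member at 35 days. Col1a2 (chr6:4504814-4541544, plus strand), the second chain of collagen I, stood at 509, 186 and 312 CPM in SCI+Ctrl at 3 days against 142, 67.0 and 83.7 CPM in sham, and at 97.0, 299.7, 239 and 638 CPM in SCI+Ctrl at 35 days against 48.0, 44.1 and 49.2 CPM in sham. Its groups did not overlap on either day, and its log2 fold change was 1.78 ± 0.54 at 3 days (adjusted p = 0.0130) and 2.76 ± 0.55 at 35 days (adjusted p = 0.000489). The 3-day calls of Col3a1 and Col1a2 were lost without SCI+Ctrl replicate 1 or sham replicate 2 or 3.

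Collagen V nucleates collagen I fibrils, and its 3 chains rose on both days. Col5a1 averaged 56.5 ± 20.6 CPM in SCI+Ctrl and 16.5 ± 5.29 CPM in sham at 3 days (SD, n = 3 each), a log2 fold change of 1.78 ± 0.46 (adjusted p = 0.00434), and it was 2.27 ± 0.46 at 35 days (adjusted p = 0.000577). Col5a2 changed by 1.67 ± 0.42 at 3 days (adjusted p = 0.00363) and Col5a3 by 1.81 ± 0.46 (adjusted p = 0.00381). At 35 days Col5a2 stood at 25.0, 43.9, 43.4 and 103 CPM in SCI+Ctrl and 21.9, 21.9 and 25.7 CPM in sham, with overlap, and its call (adjusted p = 0.0210) was lost in the fit of the compared groups only, with the replicate block, without the libraries with both sex marks, and without any 1 sham library or SCI+Ctrl replicate 4. Col11a2 (chr17:34039437-34066685, plus strand), a chain of the cartilage fibril collagen XI, was not called on either day in the fit of all groups: it stood at 65.7, 129.9 and 68.6 CPM in SCI+Ctrl at 3 days and 103, 95.4 and 95.8 CPM in sham, with overlap. Its level at 35 days was 111, 103, 104 and 145 CPM in SCI+Ctrl and 87.2, 73.5 and 81.4 CPM in sham, without overlap but not called (log2 fold change 0.52 ± 0.21, adjusted p = 0.0524). It was called as higher at 35 days by DESeq2, in the fit of the compared groups only, without the 2 libraries highest in skeletal muscle markers and without SCI+Ctrl replicate 2. Col2a1, Col11a1 and Col24a1 passed the test in no comparison of that fit. Col27a1 rose at 35 days (log2 fold change 1.33 ± 0.28, adjusted p = 0.000844).

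Of the basement membrane class, Col4a1, Col4a2, Col4a5, Col4a6 and Col18a1 rose at 3 days. Col4a1 and Col4a2 encode the chains of the collagen IV found in nearly all basement membranes. They lie head to head on chromosome 8 (chr8:11198423-11312826, minus strand, and chr8:11312805-11449287, plus strand), with annotated starts 21 bases apart and 22 exon bases shared on opposite strands. The strand setting of the counting was not stated. Col4a1 stood at 432, 286 and 299 CPM in SCI+Ctrl at 3 days, against 77.0, 74.8 and 98.2 CPM in sham. Col4a2 stood at 291, 214 and 225 CPM in SCI+Ctrl, against 106, 97.7 and 117 CPM in sham. Neither gene's groups overlapped, and the log2 fold change was 2.02 ± 0.27 for Col4a1 (adjusted p = 3.48e-06) and 1.19 ± 0.23 for Col4a2 (adjusted p = 0.000353).

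At 35 days Col4a1 stood at 43.1, 74.3, 64.8 and 131 CPM in SCI+Ctrl, against 36.6, 40.9 and 39.0 CPM in sham, and rose by 1.01 ± 0.25 (adjusted p = 0.00328), a call lost in the fit of the compared groups only. Col4a2 stood at 57.5, 81.6, 76.0 and 135 CPM in SCI+Ctrl and 62.6, 70.8 and 68.3 CPM in sham, with overlap, and was the only basement membrane chain not called at 35 days (log2 fold change 0.38 ± 0.22, adjusted p = 0.171). Col4a6, a chain of smooth muscle and epithelial basement membranes, averaged 7.30 ± 2.53 CPM in SCI+Ctrl and 2.15 ± 1.04 CPM in sham at 3 days (SD, n = 3 each) and rose by 1.75 ± 0.42 at 3 days (adjusted p = 0.00258) and 2.63 ± 0.45 at 35 days (adjusted p = 7.87e-05). Col4a5, its head-to-head neighbour on the X chromosome, rose by 0.73 ± 0.28 at 3 days (adjusted p = 0.0411) and 1.30 ± 0.27 at 35 days (adjusted p = 0.000736). Its 3-day call was lost without SCI+Ctrl replicate 1 or 3, sham replicate 2 or 3, or the 2 libraries highest in skeletal muscle markers.

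Collagens XV and XVIII are basement membrane proteins that carry glycosaminoglycans, and collagen XVIII yields endostatin. Col18a1 (chr10:77052178-77166548, minus strand) stood at 90.1, 33.2 and 78.6 CPM in SCI+Ctrl at 3 days against 22.1, 18.6 and 20.3 CPM in sham, and at 21.1, 26.5, 26.5 and 71.9 CPM in SCI+Ctrl at 35 days against 9.08, 11.5 and 12.1 CPM in sham. Col15a1 (chr4:47208161-47313167, plus strand) stood at 40.2, 20.8 and 27.8 CPM in SCI+Ctrl at 3 days against 27.1, 11.7 and 14.4 CPM in sham, and at 14.1, 19.8, 24.0 and 54.9 CPM in SCI+Ctrl at 35 days against 6.81, 10.3 and 9.10 CPM in sham. Col18a1 was higher in every injured library on both days and rose by 1.72 ± 0.40 (adjusted p = 0.00203) and 1.74 ± 0.40 (adjusted p = 0.00182). Col15a1 overlapped with sham at 3 days (log2 fold change 0.73 ± 0.40, adjusted p = 0.155) and rose at 35 days by 1.69 ± 0.40 (adjusted p = 0.00238).

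Of the other chains, Col16a1 had the smallest p of all members at 3 days. Col16a1 (chr4:130047840-130099283, plus strand), a FACIT, stood at 232, 215 and 272 CPM in SCI+Ctrl at 3 days, against 71.9, 62.6 and 63.9 CPM in sham. At 35 days it stood at 114, 95.8, 107 and 208 CPM in SCI+Ctrl, against 65.3, 65.0 and 60.4 CPM in sham. Every SCI+Ctrl library was above every sham library on both days, with a log2 fold change of 1.86 ± 0.23 at 3 days (adjusted p = 1.57e-06) and 1.05 ± 0.21 at 35 days (adjusted p = 0.000611). Col12a1 (chr9:79598991-79718831, minus strand), a FACIT of collagen I fibrils, stood at 114, 83.8 and 70.7 CPM in SCI+Ctrl at 3 days against 50.4, 14.8 and 25.6 CPM in sham, and at 80.5, 86.8, 88.1 and 127 CPM in SCI+Ctrl at 35 days against 23.2, 24.5 and 26.3 CPM in sham. Its groups did not overlap, and it rose by 1.56 ± 0.43 (adjusted p = 0.00687) and 1.95 ± 0.42 (adjusted p = 0.00110). Col20a1, another FACIT, rose by 1.32 ± 0.32 at 3 days (adjusted p = 0.00251). Col28a1, which in the mouse is known from Schwann cells of peripheral nerve, stood at 8.53, 4.55 and 26.8 CPM in SCI+Ctrl at 3 days, against 1.70, 0.397 and 0.547 CPM in sham (log2 fold change 3.89 ± 1.09, adjusted p = 0.00746), a call lost without SCI+Ctrl replicate 3 and without the 2 libraries highest in skeletal muscle markers, of which it is one. Its highest library, SCI+Ctrl replicate 3, was also the highest of day 3 in summed Schwann cell markers, and the part of those cells in the result was not tested.

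Collagen VI forms beaded filaments beside cells, and of its 6 chains Col6a3 rose at 3 days and Col6a1, Col6a2 and Col6a3 at 35 days. Col6a3 stood at 52.6, 12.7 and 34.5 CPM in SCI+Ctrl at 3 days and 15.8, 7.54 and 9.43 CPM in sham, with overlap, and this call was lost without SCI+Ctrl replicate 1 or sham replicate 2 or 3. Its 35-day call was lost without the libraries with both sex marks or SCI+Ctrl replicate 4 alone. Col6a1 (chr10:76708792-76726168, minus strand) stood at 77.8, 27.3 and 45.5 CPM in SCI+Ctrl at 3 days and 39.0, 30.7 and 25.5 CPM in sham, with overlap, and at 26.5, 63.2, 72.0 and 169.9 CPM in SCI+Ctrl at 35 days and 19.6, 16.4 and 22.1 CPM in sham, without overlap. Col6a2 (chr10:76595762-76623630, minus strand), its neighbour on chromosome 10, stood at 59.8, 32.6 and 32.7 CPM in SCI+Ctrl at 3 days and 29.1, 12.5 and 20.0 CPM in sham, and at 28.3, 51.6, 46.2 and 136 CPM in SCI+Ctrl at 35 days and 5.71, 6.53 and 13.0 CPM in sham. The log2 fold change at 35 days was 2.10 ± 0.42 for Col6a1 (adjusted p = 0.000533) and 2.97 ± 0.50 for Col6a2 (adjusted p = 8.35e-05), and at 3 days 0.66 ± 0.42 (adjusted p = 0.230) and 1.02 ± 0.48 (adjusted p = 0.0991).

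Col13a1, a transmembrane collagen of cell adhesion sites and the neuromuscular junction, had the smallest p at 35 days. It held only 830 counts summed over the 32 libraries, so its sham levels of that day rest on few counts. It stood at 3.50, 2.70, 2.29 and 6.84 CPM in SCI+Ctrl, against 0.313, 0.763 and 0.492 CPM in sham, a log2 fold change of 2.86 ± 0.46 (adjusted p = 4.28e-05). At 3 days it stood at 1.51, 2.06 and 1.46 CPM in SCI+Ctrl and 1.78, 1.35 and 2.32 CPM in sham (log2 fold change -0.11 ± 0.43, adjusted p = 0.864). The injury effect of Col13a1 differed between the days by 2.97 ± 0.62 (35 days minus 3 days; adjusted p = 0.0290), and it was the only member called in that interaction, against 0.362% of all genes. Omission of 1 library ended this call in 9 of 13 cases, and the sham libraries of 35 days were all below those of 3 days. Col8a2 and Col22a1 rose at 35 days by 2.32 ± 0.44 (adjusted p = 0.000326) and 1.61 ± 0.32 (adjusted p = 0.000434). Col25a1, a transmembrane collagen of neurons, stood at 15.2, 21.7 and 22.0 CPM in SCI+Ctrl at 3 days, against 27.8, 48.7 and 45.4 CPM in sham, and fell (log2 fold change -1.05 ± 0.35, adjusted p = 0.0205), a call lost without SCI+Ctrl replicate 1 or sham replicate 2 or 3. At 35 days it stood at 14.6, 35.6, 27.8 and 15.4 CPM in SCI+Ctrl, against 36.5, 41.7 and 52.5 CPM in sham, and fell by 0.90 ± 0.32 on the log2 scale (adjusted p = 0.0293), a call lost in the fit of the compared groups only, without the libraries with both sex marks and without SCI+Ctrl replicate 1 or 4 or sham replicate 2 or 3. Summed neuron markers (5 genes, 4 of which fell at 3 days and 3 at 35 days) were 1393, 1693 and 1420.3 CPM in SCI+Ctrl at 3 days, against 3179.9, 3248 and 3263 CPM in sham. At 35 days they were 1535, 2649, 2228 and 1182 CPM in SCI+Ctrl, against 3463, 3662 and 3586 CPM in sham, and their part in the Col25a1 result was not tested.

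Between days in injured control cords, the fibrillar sum was highest at 14 days, while the basement membrane sum was lowest at 35 days. Summed fibrillar CPM was 2049, 814 and 1315 at 3 days, 3619, 3147 and 2970.5 at 14 days and 473, 991, 893 and 2384 at 35 days, and every 14-day library was above every other library. Summed basement membrane CPM was 895, 584 and 664 at 3 days, 658, 660.1 and 491 at 14 days and 158, 231, 228 and 452 at 35 days, with overlap between 3 and 14 days. Fibrillar chains made up 48.7 ± 6.77% of collagen CPM at 3 days, 66.3 ± 1.16% at 14 days and 54.1 ± 7.29% at 35 days (SD, n = 3, 3 and 4).

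From 3 to 14 days 4 members rose, against 0.644% of all genes, and none fell, against 2.42%. Col8a2, a chain of the hexagonal network collagen VIII, averaged 16.9 ± 1.85 CPM at 14 days and 3.73 ± 1.40 CPM at 3 days (SD, n = 3 each; log2 fold change 2.18 ± 0.45, adjusted p = 0.00826). Col6a1 rose by 1.74 ± 0.42 (adjusted p = 0.0217), Col6a2 by 1.81 ± 0.48 (adjusted p = 0.0348) and Col6a5 by 4.30 ± 1.06 (adjusted p = 0.0243), at 20.4, 14.5 and 9.27 CPM at 14 days and 0.453, 0.125 and 1.69 CPM at 3 days. Col6a5 held 1320 counts summed over the 32 libraries, so its 3-day levels rest on few counts. Col1a1 itself stood at 924, 767 and 796 CPM at 14 days, above every 3-day library, but was not called (log2 fold change 1.42 ± 0.68, adjusted p = 0.240). Each of the 6 omissions of a library left 1 or 2 of the 4 calls, with Col8a2 among them every time.

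From 14 to 35 days 4 members fell, against 0.466% of all genes, and none rose, against 0.858%. Col4a1 stood at 43.1, 74.3, 64.8 and 131 CPM at 35 days, against 254, 228 and 196 CPM at 14 days, without overlap (log2 fold change -1.53 ± 0.24, adjusted p = 0.00689). Col4a2 changed by -1.08 ± 0.21 (adjusted p = 0.0392), Col14a1, a FACIT of dense connective tissue, by -2.29 ± 0.51 (adjusted p = 0.0427) and Col5a2 by -1.47 ± 0.38 (adjusted p = 0.0494). The count was 0 in a fit of the compared groups only and without SCI+Ctrl replicate 1 of 14 days, 1 without replicate 2 of 14 days or replicate 1 of 35 days, and 9 without replicate 4 of 35 days. In sham cords 0 of 42 members were called between 35 and 3 days, against 0.00613% of all genes. At an unadjusted p under 0.05, 11 were lower at 35 days, against 4.75% of all genes, and none higher, and DESeq2 called 2, Col4a1 and Col14a1, against 41 of 16314 genes. The fit of the compared groups only called 10, all lower at 35 days, with Col1a1, Col1a2, Col3a1, Col4a1 and Col4a2 among them. Of the 14775 genes in that fit 633 were called, 402 of them lower. Col1a1 in sham stood at 7.98, 8.06 and 15.8 CPM at 35 days, against 74.8, 28.0 and 50.9 CPM at 3 days (log2 fold change -2.27 ± 0.74, adjusted p = 0.455), and no sham library of 35 days was as high as any of 3 days.

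**Figure D3:**
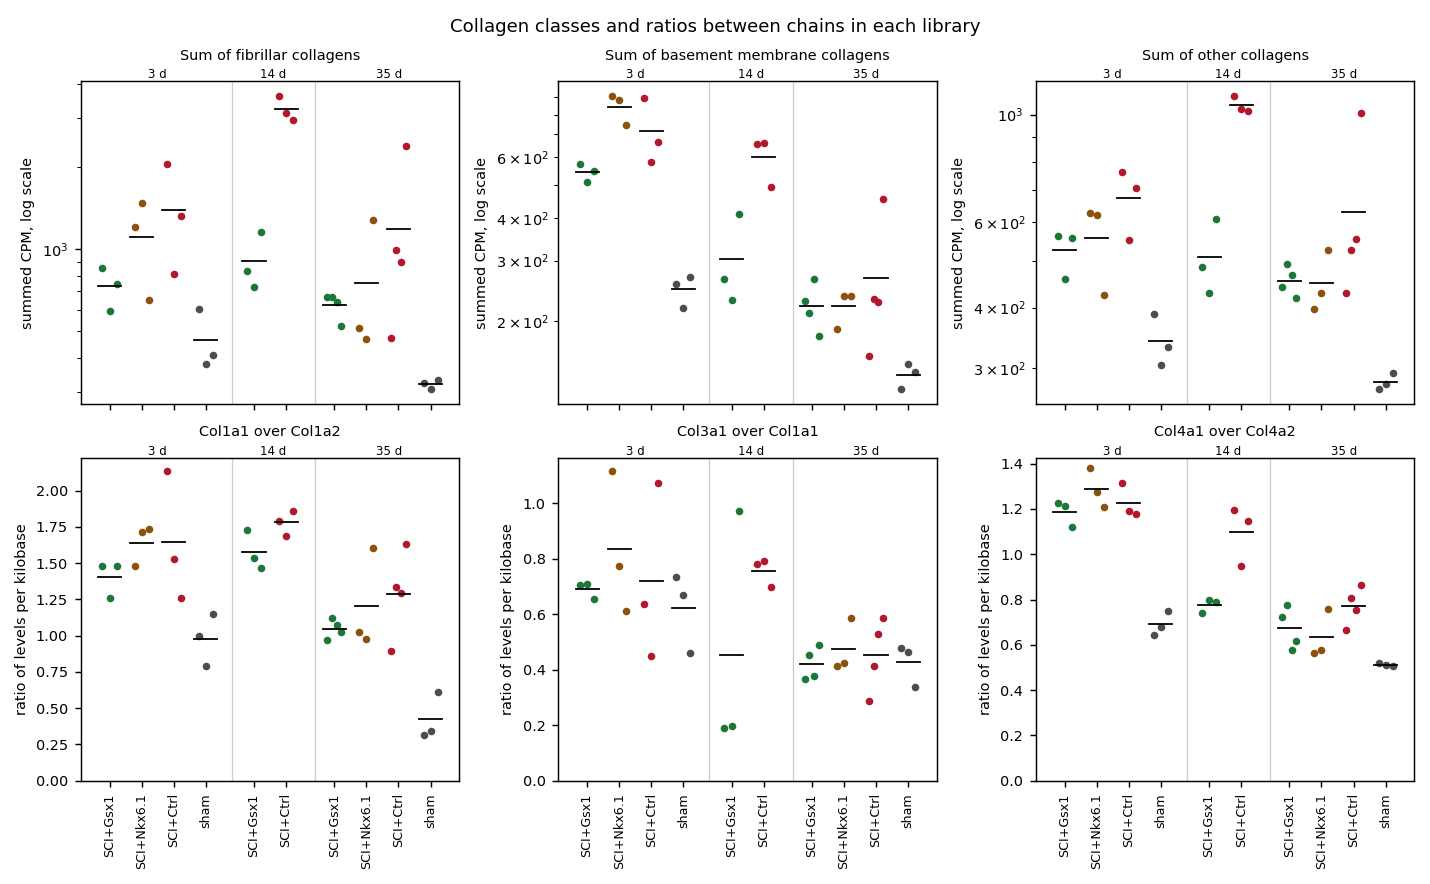
Top, summed CPM of fibrillar, basement membrane and other collagens on log axes. Bottom, ratios of RPKM: Col1a1 over Col1a2, Col3a1 over Col1a1 and Col4a1 over Col4a2. Points are libraries and lines group means. The fibrillar sum was highest in SCI+Ctrl at 14 days, and the Col4a1 to Col4a2 ratio was above 1.1 in all 9 injured libraries of day 3 and below 0.8 in all 6 sham libraries.

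The balance between chains that assemble together also differed between groups. The Col4a1 to Col4a2 ratio of RPKM was 1.31, 1.19 and 1.18 in SCI+Ctrl at 3 days, against 0.645, 0.679 and 0.747 in sham. At 35 days it was 0.666, 0.808, 0.756 and 0.862 in SCI+Ctrl, against 0.519, 0.512 and 0.507 in sham. The groups did not overlap on either day. At 14 days it was 0.739, 0.796 and 0.788 in SCI+Gsx1 cords, against 1.19, 0.947 and 1.15 in SCI+Ctrl cords, again without overlap. These ratios are given without a test. The Col1a1 to Col1a2 ratio was 0.892, 1.34, 1.29 and 1.63 in SCI+Ctrl at 35 days, against 0.315, 0.346 and 0.609 in sham. Exon lengths, 6563 bases for Col1a1 and 12426 for Col1a2 over all annotated isoforms, scale such a ratio equally in every library.

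For Gsx1, the collagen classes summed lower than in injured controls at 14 days, but no member passed the test. The fibrillar sum was 830.2, 725 and 1151 CPM in SCI+Gsx1, against 3619, 3147 and 2970.5 CPM in SCI+Ctrl, and the basement membrane sum 265, 231 and 411 CPM in SCI+Gsx1, against 658, 660.1 and 491 CPM in SCI+Ctrl. Over the 42 members 0 were called at 3, 14 or 35 days, and 0 of all 16314 genes were called in these comparisons (0.0%). At an unadjusted p under 0.05, 16 members were lower and 0 higher at 14 days, against 3.68% and 2.21% of all genes. The median log2 fold change at 14 days was -0.60 over the members and 0.0089 over all genes, 35 members were below 0, and 20 were lower and 2, Col2a1 and Col11a2, higher without overlap between the groups, against 8.50% and 7.38% of all genes. DESeq2 called 9 members at 14 days, against 47 of all 16314 genes. A fit of the 2 compared groups called 6, against 29 of 15513 genes. All of these members were lower, with Col14a1, Col5a1 and Col6a3 called in both fits. In the interactions of Gsx1 with time 0 members and 0.0% of all genes were called, with 4 members at an unadjusted p under 0.05 between 14 and 3 days, against 1.89% of all genes, and 5 between 35 and 14 days, against 7.99%. A difference in effect between the days was therefore not shown.

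**Figure D4:**
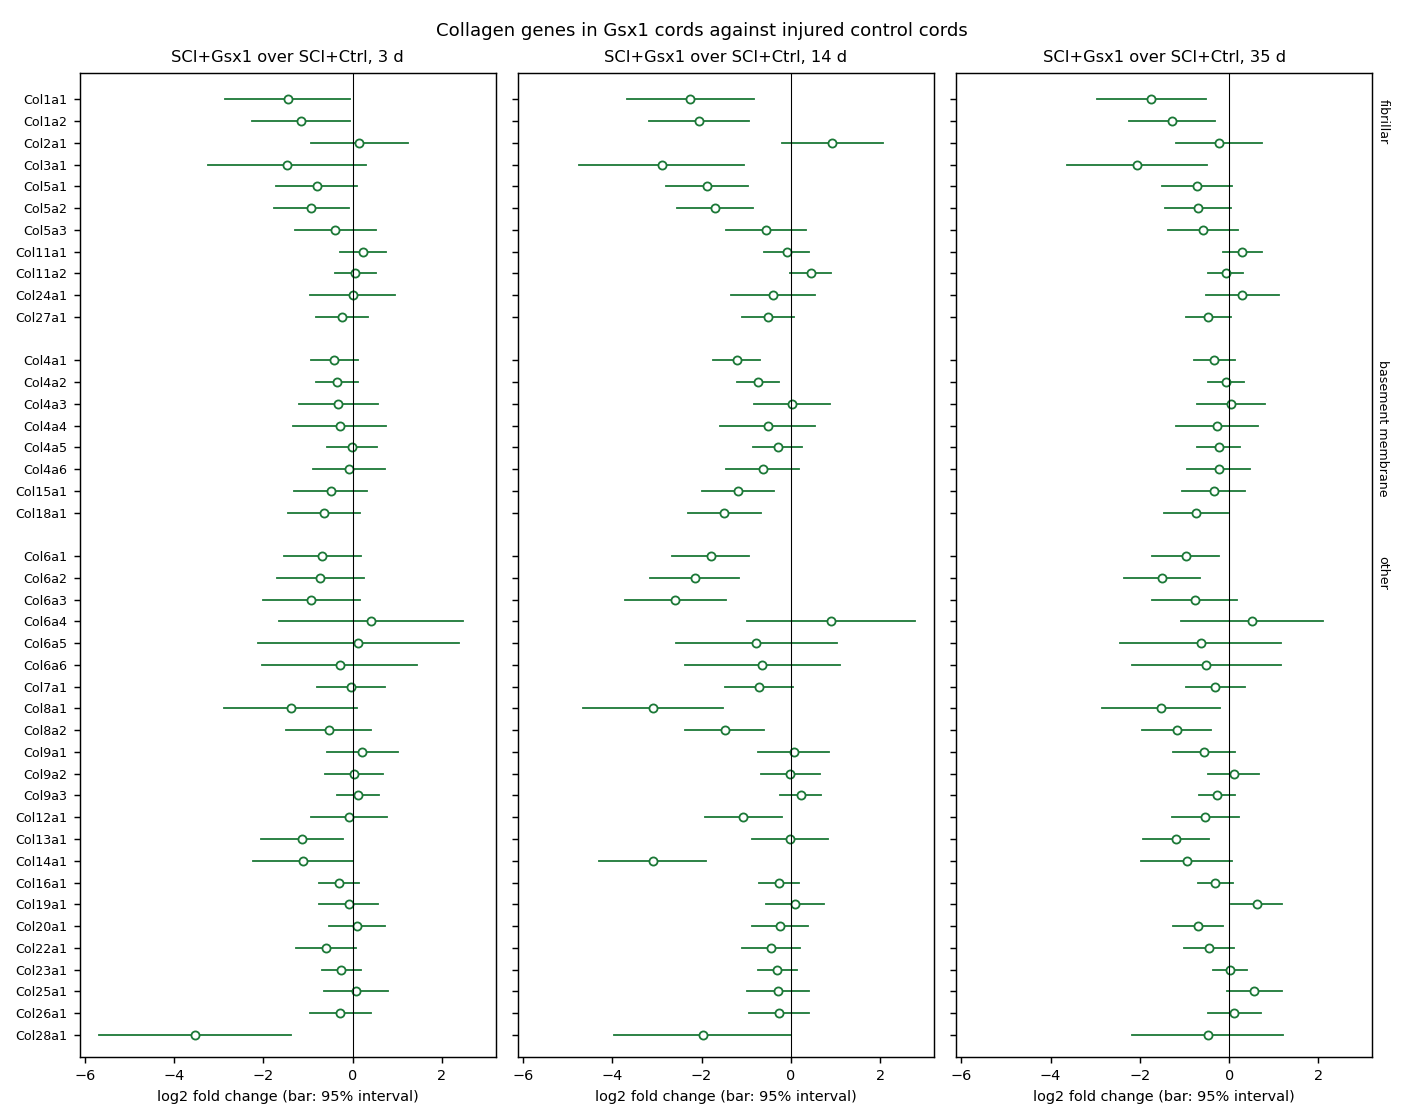
Log2 fold change of each member, SCI+Gsx1 over SCI+Ctrl, with 95% intervals, at 3, 14 and 35 days, on the same scale. All points are open because none passed the adjusted p threshold, and 32, 35 and 33 of the 42 points lie below 0.

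Col1a1 stood at 172, 156 and 194 CPM in SCI+Gsx1 at 14 days, against 924, 767 and 796 CPM in SCI+Ctrl, a log2 fold change of -2.25 ± 0.69 (95% interval -3.68 to -0.83, adjusted p = 0.406). Col1a2 stood at 189, 193 and 250.2 CPM in SCI+Gsx1, against 977, 861 and 809 CPM in SCI+Ctrl (log2 fold change -2.07 ± 0.55, adjusted p = 0.268). Col3a1 stood at 49.2, 46.2 and 283 CPM in SCI+Gsx1, against 1078, 909 and 832 CPM in SCI+Ctrl (log2 fold change -2.90 ± 0.90, adjusted p = 0.421). In each of these genes every SCI+Gsx1 library was below every SCI+Ctrl library, and for Col3a1 SCI+Gsx1 replicate 3 was well above its group. Col14a1 had the smallest p, at 1.68, 3.44 and 7.05 CPM in SCI+Gsx1 against 41.1, 35.9 and 26.7 CPM in SCI+Ctrl (log2 fold change -3.09 ± 0.58, adjusted p = 0.0773).

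Col8a1, a network chain, stood at 4.28, 6.43 and 19.1 CPM in SCI+Gsx1 against 65.2, 102 and 86.9 CPM in SCI+Ctrl (log2 fold change -3.09 ± 0.76, adjusted p = 0.244). Col6a1 stood at 30.5, 34.4 and 79.8 CPM in SCI+Gsx1 against 189, 153 and 162 CPM in SCI+Ctrl (log2 fold change -1.80 ± 0.42, adjusted p = 0.212). Col6a2 stood at 17.6, 22.7 and 57.7 CPM in SCI+Gsx1 against 164, 129 and 145 CPM in SCI+Ctrl (log2 fold change -2.16 ± 0.48, adjusted p = 0.171). The groups of these 3 genes did not overlap, and replicate 3 was the highest SCI+Gsx1 library in each. Without it 5 members were called, Col14a1, Col6a2, Col6a5, Col4a1 and Col6a1, and the share of all genes called in that fit is not given here.

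In the basement membrane class Col4a1 stood at 85.1, 74.8 and 131 CPM in SCI+Gsx1 at 14 days against 254, 228 and 196 CPM in SCI+Ctrl (log2 fold change -1.22 ± 0.26, adjusted p = 0.164). Col4a2 stood at 102, 83.4 and 148 CPM in SCI+Gsx1 against 189, 213 and 151 CPM in SCI+Ctrl (log2 fold change -0.73 ± 0.23, adjusted p = 0.421). Col18a1 stood at 20.2, 19.2 and 49.0 CPM in SCI+Gsx1 against 93.5, 97.5 and 58.1 CPM in SCI+Ctrl (log2 fold change -1.50 ± 0.40, adjusted p = 0.268). None of these 3 overlapped, whereas Col15a1 did, at 20.6, 21.2 and 40.9 CPM in SCI+Gsx1 and 74.8, 75.3 and 38.0 CPM in SCI+Ctrl. Col16a1 also overlapped, at 151, 101 and 163 CPM in SCI+Gsx1 and 188, 179 and 133 CPM in SCI+Ctrl (log2 fold change -0.27 ± 0.22, adjusted p = 0.999). Col12a1 stood at 70.2, 73.0 and 36.2 CPM in SCI+Gsx1 and 101, 110.5 and 165 CPM in SCI+Ctrl. Col11a2 was higher without overlap, at 148, 109 and 122 CPM in SCI+Gsx1 against 94.3, 83.4 and 100.3 CPM in SCI+Ctrl (log2 fold change 0.44 ± 0.22, adjusted p = 0.861).

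At 3 days 5 members were lower and 0 higher at an unadjusted p under 0.05, against 1.21% and 0.858% of all genes, and DESeq2 called 0. They were Col1a1, Col1a2, Col5a2, Col13a1 and Col28a1, and 6 members were lower without overlap, against 3.66% of all genes. Col1a1 stood at 149, 82.1 and 108 CPM in SCI+Gsx1, against 574, 150.4 and 208 CPM in SCI+Ctrl (log2 fold change -1.46 ± 0.68, 95% interval -2.85 to -0.06). SCI+Gsx1 replicate 1 nearly reached the lowest SCI+Ctrl library. At 35 days 10 members were lower and 1, Col19a1, was higher at an unadjusted p under 0.05, against 12.5% and 6.34% of all genes. DESeq2 called 0 members, against 14 of 16314 genes. With Xist as a covariate, 1282 of all 16314 genes had an unadjusted p under 0.05 at 35 days, against 3077 without it. The count of members at that threshold with the covariate is not given here. Col1a1 stood at 91.6, 101, 42.3 and 55.4 CPM in SCI+Gsx1 at 35 days, with SCI+Ctrl at 45.7, 212, 164 and 550.2 CPM (log2 fold change -1.75 ± 0.59, 95% interval -2.97 to -0.52, adjusted p = 0.195). SCI+Ctrl replicate 1 lay within the range of the SCI+Gsx1 libraries, and 1 member, Col9a1, was lower without overlap, against 2.89% of all genes. Without SCI+Ctrl replicate 2 of 35 days, 5 members were called, Col6a2, Col8a2, Col13a1, Col19a1 and Col20a1, again without the share of all genes in that fit.

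For Nkx6.1, Col4a1 and Col4a2 at 3 days lay near or above their levels in injured controls. Col4a1 stood at 449, 426 and 375 CPM in SCI+Nkx6.1, 266, 249 and 250.01 CPM in SCI+Gsx1 and 432, 286 and 299 CPM in SCI+Ctrl. Col4a2 stood at 289, 297 and 275 CPM in SCI+Nkx6.1, 192, 183 and 198 CPM in SCI+Gsx1 and 291, 214 and 225 CPM in SCI+Ctrl. For both genes the SCI+Gsx1 libraries were below all others of the injured cords, though neither gene was called. Col1a1 stood at 199.7, 326 and 113 CPM in SCI+Nkx6.1 at 3 days, and replicate 3 was below every SCI+Ctrl library. Against SCI+Ctrl 0 of 42 members were called at 3 days, against 0.337% of all genes, with 5 lower and 1, Col2a1, higher at an unadjusted p under 0.05, against 8.82% and 9.47% of all genes. The smallest adjusted p was that of Col11a2, at 56.3, 40.9 and 53.7 CPM in SCI+Nkx6.1 against 65.7, 129.9 and 68.6 CPM in SCI+Ctrl (log2 fold change -0.81 ± 0.22, adjusted p = 0.0792). DESeq2 called Col11a2 and Col28a1, against 462 of 16314 genes. Without SCI+Nkx6.1 replicate 3, 10 members were called, and without SCI+Ctrl replicate 1 there were 2. The shares of all genes called in these fits are not given here, so the counts cannot be read as particular to collagens. Summed neuron markers were 649, 618 and 1588 CPM in SCI+Nkx6.1 at 3 days and 1393, 1693 and 1420.3 CPM in SCI+Ctrl, so replicate 3 stood apart in these too, and their part in the result was not tested. In the interaction of Nkx6.1 with time 0 members were called, against 2.30% of all genes, with 6 at an unadjusted p under 0.05, against 26.1%. DESeq2 called none of the members there, against 1265 of 16314 genes.

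At 35 days 0 members and 0 of all genes (0.0%) were called for Nkx6.1, with 7 members lower and 1 higher at an unadjusted p under 0.05, against 8.69% and 3.61% of all genes, and 0 called by DESeq2. Col1a1 stood at 45.9, 36.7 and 284 CPM in SCI+Nkx6.1 and 45.7, 212, 164 and 550.2 CPM in SCI+Ctrl, and Col3a1 at 28.5, 23.3 and 250.2 CPM in SCI+Nkx6.1 and 19.6, 131, 129 and 481 CPM in SCI+Ctrl. Replicate 3 held several times the level of the other SCI+Nkx6.1 libraries in both genes, and the groups overlapped.

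Markers of connective tissue and nerve sheath cells were measured in the same libraries. Of 7 fibroblast markers 4 rose with injury at 3 days and 6 at 35 days, of 6 meningeal fibroblast markers 1 and 6, and of 7 Schwann cell markers 1 and 5. Over all genes 19.5% rose at 3 days and 21.3% at 35 days, so the 3-day counts of meningeal and Schwann cell markers were near that background. Summed fibroblast markers were 88.1, 120.01 and 293 CPM in SCI+Gsx1 at 14 days, against 595, 600.3 and 399 CPM in SCI+Ctrl. This list includes Pdgfra. In sham cords at 35 days its sum averaged 76.7 CPM, with Dcn at 11.9, Lum at 1.52 and Postn at 1.08 CPM, so most of that sum came from other genes of the list. Summed meningeal markers were 41.7, 71.9 and 243 CPM in SCI+Gsx1, against 335, 359 and 316 CPM in SCI+Ctrl. Summed Schwann cell markers were 186, 477 and 679.96 CPM in SCI+Gsx1, against 1029, 1762 and 866 CPM in SCI+Ctrl. None of these 3 sums overlapped, and as with Col3a1 the highest SCI+Gsx1 library was replicate 3. No marker of these lists was at 0 in any group, and their part in the collagen differences was not tested.

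**Figure D5:**
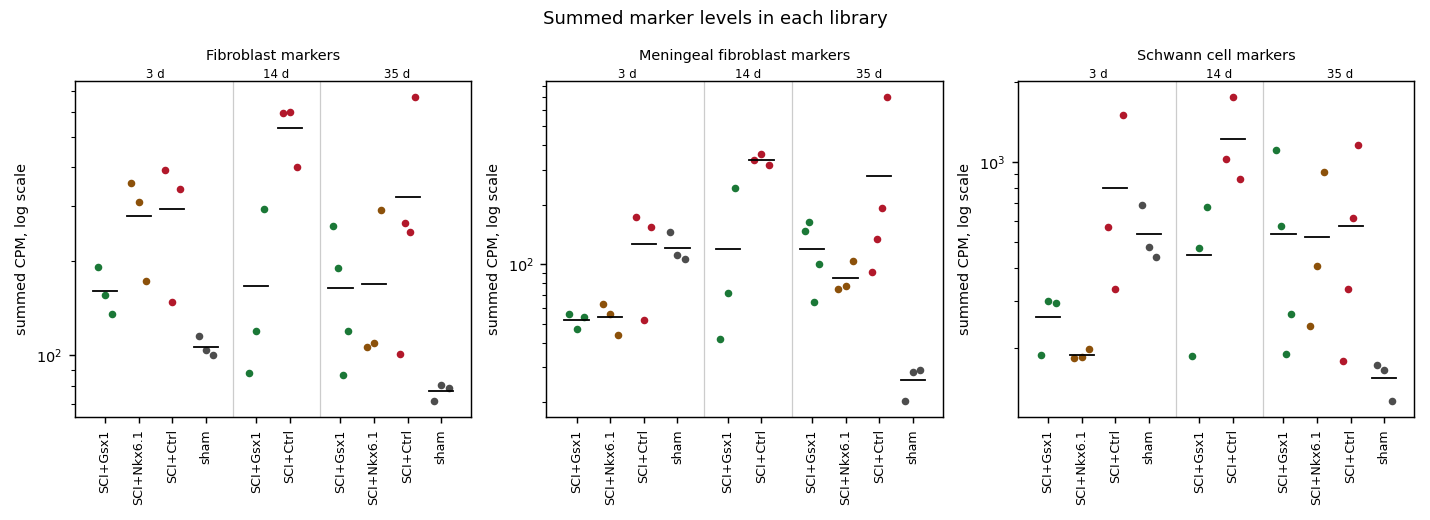
Summed CPM on log axes of 7 fibroblast, 6 meningeal fibroblast and 7 Schwann cell markers in each library, with group means as lines. The SCI+Ctrl libraries of day 14 were above the SCI+Gsx1 libraries of that day in all 3 sums, and SCI+Ctrl replicate 4 was the highest library of day 35 in each.

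Summed pericyte markers overlapped at 14 days, at 187 to 256 CPM in SCI+Gsx1 and 236 to 284 CPM in SCI+Ctrl. Oligodendrocyte markers summed higher in SCI+Gsx1 without overlap, at 23356 to 27044 against 17051 to 20143 CPM. So did astrocyte markers, at 10018 to 10642 against 8117 to 9435 CPM, and the part of these cells was not tested. Summed endothelial markers were 284, 289 and 365 CPM in SCI+Gsx1 at 14 days and 327, 307 and 316 CPM in SCI+Ctrl, with overlap, while 6 of 7 endothelial markers rose with injury at 3 and at 35 days. At 3 days after injury the endothelial sum was 589, 473 and 499 CPM in SCI+Ctrl against 309, 284 and 283 CPM in sham, without overlap, as for Col4a1. Cartilage markers rose in 3 of 6 tested genes at 35 days, and their sum was 27.8, 11.9, 16.4 and 30.6 CPM in SCI+Ctrl against 2.89, 3.90 and 5.74 CPM in sham. Of the collagens known from cartilage, Col9a3 and Col27a1 rose at 35 days, and Col2a1, Col9a1, Col9a2, Col11a1 and Col11a2 were not called.

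The enzymes and partners of collagen were called mostly as higher after injury. Of 19 genes for folding and modification, 13 rose and 0 fell at 3 days, and 13 rose and 1 fell at 35 days. For these lists too, the shares over all genes were 19.5% higher and 16.0% lower at 3 days and 21.3% and 15.5% at 35 days. P4ha3, a prolyl hydroxylase subunit, averaged 73.7 ± 2.87 CPM in SCI+Ctrl and 14.8 ± 2.54 CPM in sham at 3 days (SD, n = 3 each; log2 fold change 2.32 ± 0.22, adjusted p = 1.17e-07). Plod2, a lysyl hydroxylase, rose by 1.43 ± 0.23 (adjusted p = 3.86e-05). Of 13 genes for procollagen processing and cross-linking, 7 rose and 1 fell at 3 days, and 7 rose and 2 fell at 35 days. Bmp1, the C-proteinase of fibrillar procollagens, rose at 3 days by 1.58 ± 0.26 (adjusted p = 5.71e-05). Adamts3, an N-proteinase, fell by 1.24 ± 0.33 on the log2 scale (adjusted p = 0.00539). Pcolce, the enhancer of that C-proteinase, rose at 35 days by 4.22 ± 0.69 (adjusted p = 5.53e-05), and Loxl2, a cross-linking oxidase, by 2.76 ± 0.44 (adjusted p = 3.78e-05).

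Of 9 tested collagen receptor genes 5 rose at 3 days and 8 at 35 days. Ddr1, a receptor tyrosine kinase for collagen, rose at 3 days by 0.71 ± 0.13 (adjusted p = 0.000171), and Mrc2, an endocytic collagen receptor of fibroblasts, at 35 days by 3.16 ± 0.51 (adjusted p = 4.35e-05). Of 15 other basement membrane genes 6 rose at 3 days and 8 at 35 days, and none fell. Lamc1, a laminin gamma chain, rose at 3 days by 1.19 ± 0.22 (adjusted p = 0.000200), and Lamb2, a laminin beta chain, at 35 days by 1.60 ± 0.19 (adjusted p = 9.85e-07). None of the genes of these 4 lists was called for Gsx1 or Nkx6.1 on any day. In SCI+Gsx1 over SCI+Ctrl at 14 days the median log2 fold change was -0.11 for the folding list and -0.65 for processing and cross-linking. That median was -0.53 for the receptors and -0.79 for the other basement membrane list.

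Of the 42 members, 11 were called in no comparison in the fit of all 10 groups, though Col11a2, Col2a1 and others were called under some alternatives: Col2a1, Col11a1, Col11a2 and Col24a1 of the fibrillar class, and Col6a4, Col6a6, Col9a1, Col9a2, Col19a1, Col23a1 and Col26a1 of the others. Col11a1 and Col11a2 were abundant in every group, with group means of 65.9 to 106 CPM and 50.3 to 126 CPM. Col9a3 was called at 35 days (log2 fold change 0.83 ± 0.22, adjusted p = 0.00539), but 6.07% of its exon bases lie in Tcfl5 on the opposite strand, the largest such overlap among the members.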

How the data were processed

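RNA-seq of mouse spinal cord, 32 libraries in 10 groups, was analysed from the whole-number counts of reads for each gene that the authors deposited, which are not normalized. The submitters' processing notes name HISAT2, SAMtools, HTSeq and DESeq2, and mm10 and GRCm38 as builds. Their versions and roles, the strand setting and the treatment of multiply matching reads were not stated. Columns were tied to samples through the description label of each.

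Genes were tested with edgeR 4.0.16 (R 4.3.3), glmQLFit and glmQLFTest with TMM scaling, after filterByExpr (minimum count 10, minimum total 15), which kept 16314 genes. A single model held the 10 groups and no covariate (22 residual and 4.40 prior degrees of freedom, common biological coefficient of variation 20.8%). The 14 comparisons were adjusted by Benjamini-Hochberg over all genes tested, and a gene was called at an adjusted p under 0.05. Log2 fold changes carry SE (the fold change over the square root of F) and 95% intervals. Levels are TMM-scaled CPM. RPKM divides CPM by the union of exons in the GENCODE annotation of GRCm38, whose coordinates are 1-based. Library totals of 10823632 to 19512107 counts set the counting precision. Pairs of libraries within a group differed by a chi-square of at least 3.74 per degree of freedom, so none was taken as a repeat. The code was tested on simulated data.

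Members, classes, marker lists and related gene lists were chosen with earlier results of these data known. Values per library were given for the 4 members of each class with the highest mean CPM, fold changes for up to 10 called members a comparison by smallest p, and up to 3 genes of a related list. Outside that rule, Col4a5, Col8a1, Col9a3, Col14a1, Col25a1, Col27a1 and Col28a1, and members named in short counts, were chosen after their values were seen. Alternatives were RLE scaling, no filter, DESeq2 1.42.0, the compared groups only, the replicate number as a block, Xist as a covariate, no libraries with both sex marks, each library left out, and, chosen after seeing the data, no libraries above 200 CPM of skeletal muscle markers.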

Additional observations from a re-analysis of the deposited data

Results flagged for a closer look

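In SCI+Ctrl cords at 35 days replicate 4 stood apart from the other 3 libraries in 3 members: Col18a1 at 71.9 CPM, Col16a1 at 208 CPM and Col12a1 at 127 CPM, each separated from the next library by a gap large against the range of its group. Chance alone marks about 1 in 20 such checks, and 30 were made. The same library was the highest of its group in Col1a1, Col3a1, Col4a1 and Col6a2, had 705 CPM of summed meningeal markers against 91.5 to 194 CPM in the others, and carried both sex marks. The part of these in its collagen levels was not tested.

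The injury effect of Col13a1 at 35 days exceeded that at 3 days by 2.97 on the log2 scale. At 35 days it was 2.86 and at 3 days -0.11, and the sham level was 0.523 ± 0.227 CPM at 35 days and 1.82 ± 0.489 CPM at 3 days (SD, n = 3 each).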

How the results depend on the processing

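All directions of the named results were kept under every setting. RLE scaling moved no count of called members by over 1.5 times. For Gsx1 at 14 days the count, 0, became 1 without the expression filter, 9 with DESeq2, 6 with the compared groups only and 6 without the 2 libraries with both sex marks, which belong to neither group. Over all genes these fits called 3 of 20916, 47 of 16314, 29 of 15513 and 17 of 16467, in that order. For Nkx6.1 at 3 days DESeq2 gave 2 (462 of 16314 genes). Between 14 and 3 days in injured control cords the count, 4, became 9 with the compared groups only (1790 of 15432 genes) and 2 without the 2 libraries highest in skeletal muscle markers (332 of 16458 genes). Between 35 and 14 days the count, 4, became 9 with DESeq2 (972 of 16314 genes) and 0 with the compared groups only (0 of 15550 genes). It became 8 without the libraries with both sex marks (34 of 16467 genes) and 2 with the Xist covariate (6 of 16314 genes). In sham cords it became 2 with DESeq2 (41 of 16314 genes) and 10 with the compared groups only (633 of 14775 genes). For injury by time the count, 1, became 2 with DESeq2 and 0 with the compared groups only, the Xist covariate, and without the libraries with both sex marks or high skeletal muscle markers. Over all genes these fits called 230 of 16314, 32 of 15715, 28 of 16314, 10 of 16467 and 30 of 16458, in that order. The causes were not tested.

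With each library left out in turn, counts ranged from 11 to 20 for injury at 3 days, 21 to 31 for injury at 35 days, 0 to 5 for Gsx1 at 14 days and at 35 days, 0 to 10 for Nkx6.1 at 3 days, 1 to 2 between 14 and 3 days, 0 to 9 between 35 and 14 days, 0 to 2 for injury by time and 0 to 7 for Nkx6.1 by time, where SCI+Nkx6.1 replicate 3 of day 3 decided the 7, and were 0 throughout for Gsx1 at 3 days, Nkx6.1 at 35 days, sham by time and Gsx1 by time. The shares of all genes called in these omissions are not given, so the counts have no background beside them.

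Same-numbered replicates correlated between −0.469 and 0.331 in their deviations from group means, so the numbers were not taken as pairs. With the replicate block the counts were 19 for injury at 3 days, 23 at 35 days, 2 between 35 and 14 days and 0 for injury by time. Over all 16314 genes that fit called 5742, 4774, 9 and 20, in that order, against 5788, 6009, 216 and 59 without the block. Groups of 3 or 4 libraries limit the precision.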
